A study of Mus musculus with 15 samples.

Results

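The change of CD11b-low alveolar macrophages of Cybb knockout mice between 4 and 12 weeks of age is described here, from 6 RNA sequencing libraries of 15 in the study. The 6 are the libraries whose labels give the knockout genotype (CGD/CYBB KO on C57BL/6) and a CD11blow gate, 3 from mice of 12 weeks and 3 from mice of 4 weeks. The 6 CD11b-low libraries of wild-type C57BL/6 mice at the same ages, 3 each, serve to show where the knockout differed, and the 3 CD11b-high libraries of 12-week knockout mice entered the estimate of spread and are quoted for a few genes. All mice were labelled naive, and all cells came from bronchoalveolar lavage and were sorted as CD45+ Ly6G- SiglecF+ CD11c+ before the split by CD11b. Every replicate was a pool of cells from 2 to 3 mice (about 50000 cells), so animals within a pool are averaged, and the labels give neither the sex of the mice nor the part of the gene that was removed.

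Alveolar macrophages live in the airspaces, where they take up surfactant lipid, dust and dead cells, and in mice the compartment is seeded around birth and goes on maturing for weeks afterwards. Cybb encodes NOX2 (gp91phox), the catalytic subunit of the phagocyte NADPH oxidase, which turns oxygen into superoxide. Its loss causes chronic granulomatous disease, in which infection and sterile inflammation both run on. CD11b, the integrin chain encoded by Itgam, is low on resident alveolar macrophages and higher on cells that recently came from blood monocytes.

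The 6 knockout libraries held 31386757 to 36458893 counts. Levels are CPM (a gene's counts as a share of the library's TMM-scaled total, expressed per mega-count), given for replicates 1, 2 and 3 in that order, and fold changes and adjusted p-values come from edgeR's two-sided quasi-likelihood test over 13284 genes with Benjamini-Hochberg adjustment. Cybb, the targeted gene, stood at 134, 186 and 169 CPM at 12 weeks and 184, 208 and 221 CPM at 4 weeks in the knockout and at 899, 957 and 1221 and 1531, 1534 and 2319 CPM in the wild type at the same ages. All 6 knockout libraries lay below all 6 wild-type libraries, and Cybb did not pass the test with age in the knockout (log2 fold change -0.32, SE 0.23, adjusted p = 0.424). Of the sort markers, Siglecf, Itgax and Ptprc did not pass with age, and Itgam stood at 3.11, 4.44 and 6.26 CPM at 12 weeks and 1.24, 1.38 and 1.99 CPM at 4 weeks (log2 fold change 1.58, SE 0.42, adjusted p = 0.0339), without overlap between the ages. The Itgam call was lost without 12-week replicate 3 or any one of the 3 libraries of 4 weeks (largest adjusted p = 0.151) and with library totals in place of TMM. The 10 defining markers of alveolar macrophages together made up 44412 to 49199 CPM of all counts at 12 weeks and 37578 to 40772 CPM at 4 weeks, and none of the 10 was at 0 in any group. Most of that sum was Chil3. It made up 36290, 35230 and 40190 CPM of all counts at 12 weeks and 31300, 29990 and 27500 at 4 weeks. On the TMM scale 5 of the 10 were higher in every 12-week library than in every 4-week library, against 19% of all genes. Mrc1 alone was lower in every 12-week library, against 19.6% of all genes. By edgeR 1 of the 10, Fabp4, passed with age. The median log2 fold change of the 10 was 0.22, and -0.11 with library totals in place of TMM. Mrc1 stood at 376.6, 558.3 and 442 CPM of all counts at 12 weeks and 771.6, 1076 and 1078 at 4 weeks. Xist, which marks female cells, stood at 19.7, 0.0298 and 12.7 CPM at 12 weeks and 12.8, 0.0564 and 0.0239 CPM at 4 weeks, so it was high in 2 of 3 pools at 12 weeks and in 1 of 3 at 4 weeks. In the wild type Xist stood at 0, 0.0637 and 0.0913 CPM at 12 weeks and 13.9, 0.103 and 33.0 CPM at 4 weeks. The Y-linked Ddx3y stood at 0.363 CPM in wild-type replicate 3 of 4 weeks, against 41.4 and 75.9 CPM in replicates 1 and 2. In the knockout Ddx3y stood at 16.4, 62.3 and 47.8 CPM at 12 weeks and 51.5, 71.3 and 61.7 CPM at 4 weeks. Age and the sex of the pools are thus partly mixed in the knockout comparison, in the wild-type comparison and in the difference between the genotypes.

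Of the 13284 genes tested, 915 (6.89%) passed an adjusted p of 0.05 with age in the knockout. At 12 weeks 639 (4.81%) were higher and 276 (2.08%) were lower. Rises were larger than falls: 520 of the 639 exceeded 2-fold and 329 exceeded 4-fold, against 183 and 36 of the 276. The median log2 fold change was 2.06 among the genes that rose, -1.14 among those that fell and -0.02 over all genes tested. The higher share of 69.8% moved to 80.4% with upper-quartile scaling and to 28.1% (421 of 1498) when library totals were used without TMM factors, which shifted the median of all genes to -0.36. TMM factors were 0.843 to 0.9899 at 12 weeks and 1.13 to 1.173 at 4 weeks. The 915 were 359 without 12-week replicate 1, 377 without 12-week replicate 3, and 329, 280 and 235 without replicates 1, 2 and 3 of 4 weeks, while 1305 passed without 12-week replicate 2. A fit with the Xist level as a covariate called 553. The median over genes of the SD of log2 CPM was 0.389 at 12 weeks and 0.189 at 4 weeks, so the older libraries differed more from each other than the younger ones.

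**Figure D1:**
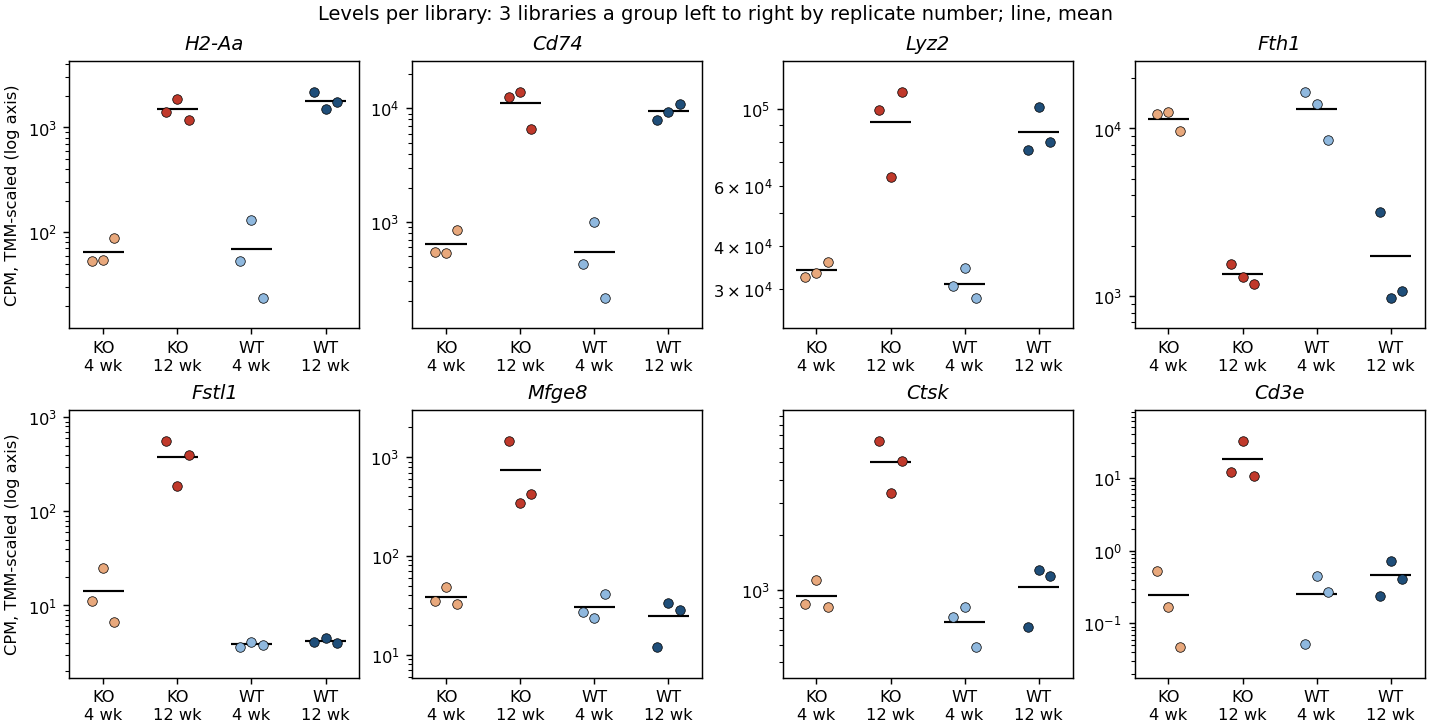
CPM (TMM-scaled, log axis) of 8 genes in each library of the CD11b-low groups; KO, Cybb knockout; WT, wild type; points, the 3 libraries of a group in replicate order; line, mean. H2-Aa, Cd74, Lyz2 and Fth1 differ by age in both genotypes, while Fstl1, Mfge8, Ctsk and Cd3e are high in the 12-week knockout libraries. By edgeR the difference between the genotypes passed for Fstl1 and Mfge8, but not for Ctsk or Cd3e (adjusted p = 0.0666 for Cd3e).

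The antigen presentation genes of MHC class II, which load peptides for CD4+ T cells, were among the largest rises. H2-Aa (ENSMUSG00000036594, 17:34282744-34287823, minus strand in GENCODE M21 on GRCm38), the class II alpha chain, stood at 1419.5, 1883 and 1189 CPM at 12 weeks and 52.7, 54.4 and 87.8 CPM at 4 weeks (log2 fold change 4.53, SE 0.54, adjusted p = 1.6e-04). H2-Eb1, a class II beta chain gene, stood at 269, 453 and 269 CPM at 12 weeks and 11.7, 11.7 and 17.9 CPM at 4 weeks (log2 fold change 4.58, SE 0.63, adjusted p = 4.9e-04). Cd74, the invariant chain that guides class II molecules to the endosome, stood at 12567, 13971 and 6621 CPM at 12 weeks and 539, 531 and 855 CPM at 4 weeks (log2 fold change 4.11, SE 0.51, adjusted p = 1.7e-04). In all 3 genes every 12-week library exceeded every 4-week library, and none lost its call without any one knockout library. The promoters of both H2 genes are shown because they share the Y box, a CCAAT-type element known from class II promoters, here printed as CTGATTGG in capitals in the 250 bases before the RefSeq start site (GRCm38.p6, 5′ to 3′ on the gene's strand). H2-Aa spans chr17:34287824-34288073 on the minus strand and H2-Eb1 chr17:34305617-34305866 on the plus strand. Fth1, the largest fall among the genes named by the rule for size and level, is set beside them (chr19:9982396-9982645, plus strand).

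H2-Aa: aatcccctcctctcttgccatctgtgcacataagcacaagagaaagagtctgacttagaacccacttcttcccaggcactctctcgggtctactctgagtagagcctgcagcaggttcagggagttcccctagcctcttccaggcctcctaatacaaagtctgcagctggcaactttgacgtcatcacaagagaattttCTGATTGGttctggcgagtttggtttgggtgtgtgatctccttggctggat
H2-Eb1: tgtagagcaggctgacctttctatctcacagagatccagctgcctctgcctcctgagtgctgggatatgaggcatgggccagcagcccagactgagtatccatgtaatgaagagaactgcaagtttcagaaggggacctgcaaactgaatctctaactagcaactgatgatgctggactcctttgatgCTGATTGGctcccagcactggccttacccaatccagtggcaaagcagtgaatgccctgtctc
Fth1: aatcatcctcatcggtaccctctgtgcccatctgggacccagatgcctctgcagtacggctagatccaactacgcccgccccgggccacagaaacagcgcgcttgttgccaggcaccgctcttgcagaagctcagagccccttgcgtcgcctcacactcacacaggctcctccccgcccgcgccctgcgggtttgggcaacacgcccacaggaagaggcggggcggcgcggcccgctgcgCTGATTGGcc

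The element starts 51, 62 and 10 bases before the start site in H2-Aa, H2-Eb1 and Fth1, on the gene's own strand, once in each. On either strand these 8 letters occur in 3.83% of all 32851 promoter windows of that length, in 6.37% of the 9758 tested genes with a window, in 5.24% of 477 such genes that rose and in 7.94% of 214 that fell. Of 11 class II list genes with a window 4 hold them, and H2-DMb1, H2-DMa and Ctss do not. The letters occur before a gene that fell as well as before genes that rose, and a match is a description of the sequence only.

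Of 15 class II presentation genes tested, 6 rose and 9 did not pass in either direction, with a median log2 fold change of 1.35 against -0.02 over all genes. H2-DMb1, a peptide editor of the pathway, stood at 211, 211 and 216 CPM at 12 weeks and 84.3, 78.2 and 88.0 CPM at 4 weeks (log2 fold change 1.35, SE 0.22, adjusted p = 0.0016), and the costimulator gene Cd86 at 59.98, 45.9 and 69.4 CPM at 12 weeks and 30.7, 26.8 and 27.8 CPM at 4 weeks. H2-Ob, an inhibitor of peptide loading, had no count in any 4-week library and reached 0.915, 1.52 and 0.0653 CPM, which is at least 10.6-fold higher against a floor of 3 counts in each 4-week library. H2-Ab1, the partner chain of H2-Aa, did not pass (log2 fold change 3.42, SE 1.003, adjusted p = 0.0572). It stood at 94.4, 765 and 308 CPM at 12 weeks and 31.7, 27.9 and 49.3 CPM at 4 weeks, so all 12-week libraries were above the young ones but they spread widely. Ciita, the class II transactivator, stood at 2.53, 9.72 and 2.68 CPM at 12 weeks and 1.21, 1.33 and 1.58 CPM at 4 weeks and also missed the threshold (adjusted p = 0.0778). The peptide loader H2-DMa and the protease Ctss did not pass either. Between 4 and 6 of the class II genes were called when 1 knockout library was left out. In the wild type 8 of the same 15 rose, with log2 fold changes of 4.70 for H2-Aa, 4.18 for H2-Eb1 and 4.10 for Cd74, and the difference between the genotypes passed for 0 of the 15 by edgeR (2 at an unadjusted p under 0.05).

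Class I genes, which present peptides to CD8+ T cells, gave 6 that rose of 21 tested (median 0.51). H2-M2, a nonclassical class I gene, stood at 316, 122 and 92.1 CPM at 12 weeks and 8.71, 7.16 and 3.68 CPM at 4 weeks (log2 fold change 4.76, SE 0.61, adjusted p = 2.7e-04). Its highest library was 12-week replicate 1, and without it the log2 fold change was 4.03. The other members that rose were H2-Q7, H2-Q6, H2-M3, H2-T23 and H2-T22, by log2 fold changes of up to 1.78. H2-Q and H2-T genes are close copies of each other, so the division of reads between them is uncertain. The 6 became 1 without 4-week replicate 1 or 3, 2 without 4-week replicate 2, 3 without 12-week replicate 1 or 3, and 7 without 12-week replicate 2.

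Genes for secreted and matrix proteins held several of the largest rises. Fstl1 (ENSMUSG00000022816, 16:37776873-37836514, plus strand), a secreted follistatin-like glycoprotein that binds TGF-beta family ligands, stood at 560.2, 187 and 395 CPM at 12 weeks and 11.1, 24.96 and 6.67 CPM at 4 weeks (log2 fold change 4.74, SE 0.48, adjusted p = 3.7e-05). Every old library was above every young one. The wild-type libraries held 4.07, 4.49 and 3.97 CPM at 12 weeks and 3.65, 4.08 and 3.84 CPM at 4 weeks, and the CD11b-high libraries of 12-week knockout mice 1789, 1013 and 1036 CPM, above all 3 CD11b-low libraries. Mfge8 (ENSMUSG00000030605, 7:79133768-79149060, minus strand), which bridges apoptotic cells to phagocyte integrins, stood at 1459, 345 and 424 CPM at 12 weeks and 35.2, 48.7 and 32.4 CPM at 4 weeks (log2 fold change 4.26, SE 0.56, adjusted p = 2.9e-04). Replicate 1 held the most Mfge8 at 12 weeks, and the log2 fold change was 3.31 without it. In the CD11b-high libraries Mfge8 stood at 3588, 1819.5 and 1445 CPM and Mmp12 at 1055, 2133 and 843 CPM, again above every CD11b-low library. How far cells near the border of the CD11b gate contribute to the CD11b-low values was not tested. Of 31 matrix proteases and matrix genes, 9 rose (median 0.93, or 0.77 with Mmp9, which had 0 counts at 4 weeks, at its bound). The macrophage elastase Mmp12 stood at 182, 117 and 83.4 CPM at 12 weeks and 17.5, 8.09 and 5.05 CPM at 4 weeks (log2 fold change 3.64, SE 0.51, adjusted p = 4.3e-04), and the membrane-bound collagenase Mmp14 at 10.8, 2.77 and 2.19 CPM at 12 weeks and 0.184, 0.226 and 0.239 CPM at 4 weeks (log2 fold change 4.57, SE 0.80, adjusted p = 0.0030). Both were without overlap between the ages, and Mmp14 remained a low-level transcript. Ctsk, the collagen-degrading cathepsin K, stood at 6523, 3374 and 5058 CPM at 12 weeks and 837, 1130.1 and 805 CPM at 4 weeks (log2 fold change 2.43, SE 0.34, adjusted p = 4.6e-04), which made it one of the most abundant genes to rise. Timp2 and Ecm1 rose by 1.45 and 1.81 on the log2 scale, and Adam8, Adam19 and Col4a1 rose from low levels. Col4a1 stood at 1.16, 0.0596 and 0.0653 CPM at 12 weeks and 0, 0 and 0.0239 CPM at 4 weeks, so that only replicate 1 was well above the young libraries. The 9 became 4 without 4-week replicate 1 or 3 and 5 without 12-week replicate 1. Inhba, which encodes the activin A chain, was besides Fstl1 the only one to rise among 30 genes of the TGF-beta and activin axis (median -0.18). Those 2 of 30 are set against 4.81% of all genes that rose.

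Lipid-associated macrophage genes, a set known from macrophages loaded with lipid or debris, gave 10 that rose of 22 tested (median 1.02). The tetraspanin gene Cd63 stood at 1631, 528 and 1085 CPM at 12 weeks and 74.7, 154 and 83.5 CPM at 4 weeks (log2 fold change 3.38, SE 0.39, adjusted p = 1.3e-04). Gpnmb, a lysosomal and surface glycoprotein, stood at 3403, 1842 and 2040.0 CPM at 12 weeks and 873, 1267 and 871 CPM at 4 weeks (log2 fold change 1.27, SE 0.34, adjusted p = 0.0326), and Cstb, an inhibitor of cathepsins, at 1894, 993 and 1656 CPM at 12 weeks and 614, 571 and 558 CPM at 4 weeks (log2 fold change 1.38, SE 0.28, adjusted p = 0.0075). Replicate 2 was the lowest 12-week library in all 3 genes, and no 12-week library overlapped the young ones. Fabp5, Ctsl, Ctsb, Cd68, Mmp12, Timp2 and Syngr1 were the other members that rose. The count of 10 fell to 3 without 4-week replicate 3, 4 without 4-week replicate 1 or 12-week replicate 1 and 6 without 4-week replicate 2. Of 13 cathepsins 4 rose and 1 fell: Ctsk, Ctsl, Ctsb and Ctsw were higher and Ctsf, which stood at 7.57, 6.89 and 4.699 CPM at 12 weeks and 16.8, 14.5 and 21.7 CPM at 4 weeks, was lower. Ctsw, a cathepsin of cytotoxic lymphocytes, stood at 0.275, 9.01 and 4.73 CPM at 12 weeks and 0.0789, 0.0564 and 0.0239 CPM at 4 weeks, lowest in replicate 1. The Ctsf call was lost without any one of the 6 knockout libraries (adjusted p up to 0.135), and the 4 cathepsins that rose became 2 without 12-week replicate 1 or 4-week replicate 1 or 3. Of 52 genes of lysosomal hydrolases and the proton pump 8 rose and 1 fell (median 0.13, -0.18 with library totals), among them the phosphatase Acp5 (1.31), the galactosidase Gla (1.33) and the pump subunits Atp6v1f (1.12) and Atp6v1e1 (1.06) on the log2 scale. Those 8 became 0, 1 and 2 without replicates 3, 2 and 1 of 4 weeks, 2 without 12-week replicate 1 and 3 without 12-week replicate 3.

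**Figure D2:**
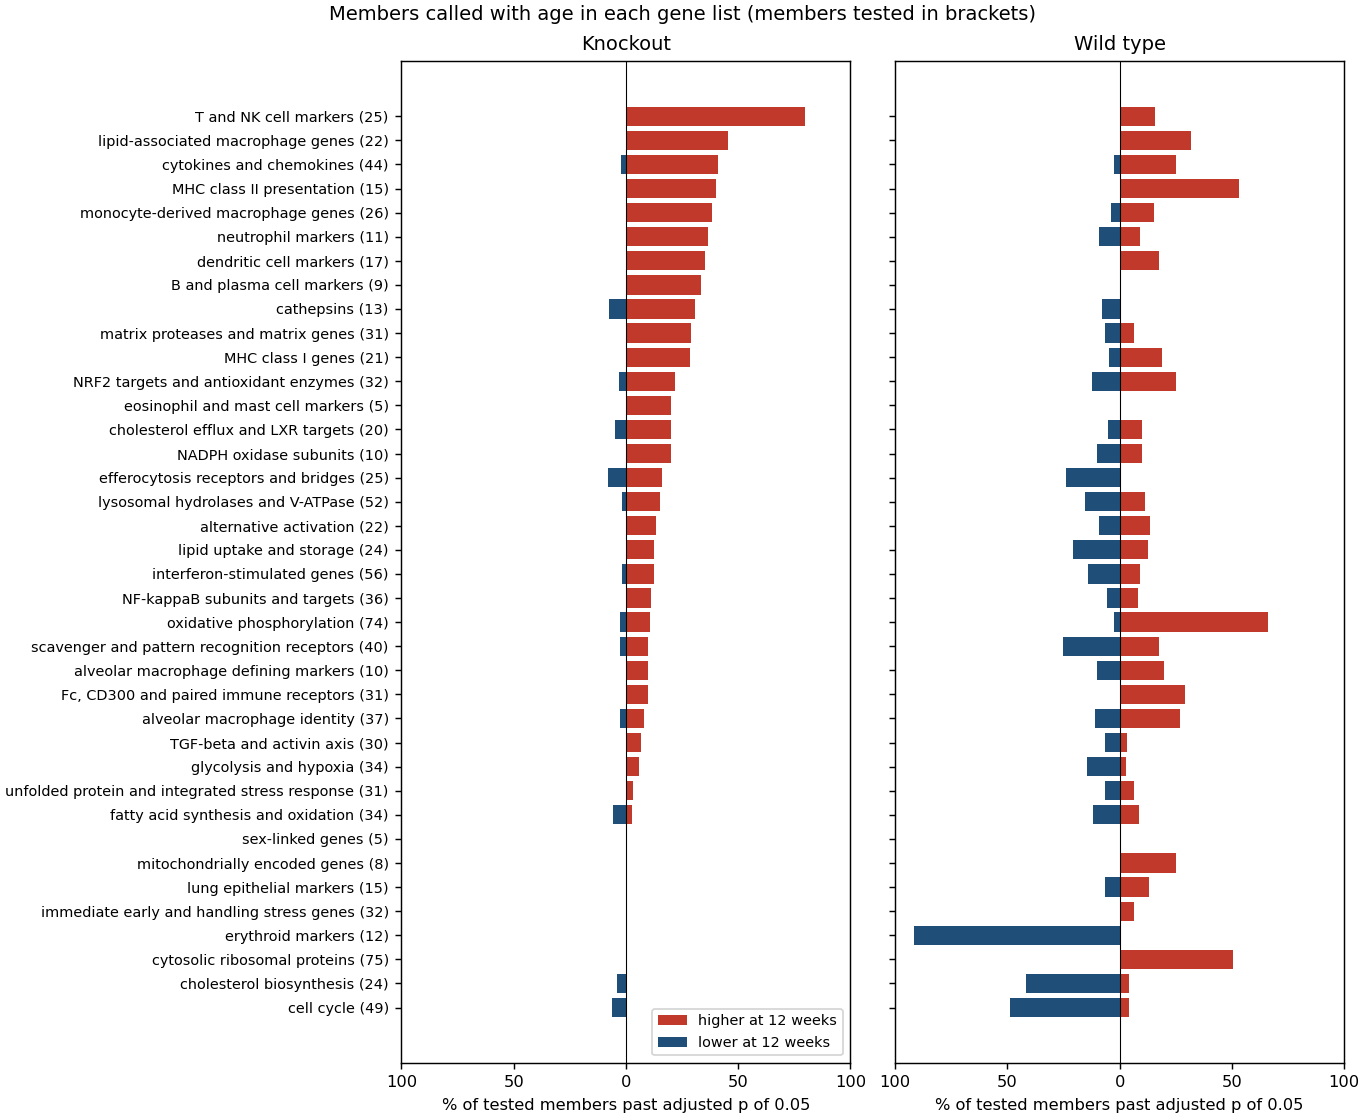
Share of the tested members of each gene list (members tested in brackets; lists of 5 or more) that passed an adjusted p of 0.05 with age, in knockout (left) and wild-type (right) CD11b-low cells; red, higher at 12 weeks; blue, lower. The T and NK cell list has 20 of 25 members higher in the knockout and 4 in the wild type, while ribosomal protein and oxidative phosphorylation genes have 38 of 75 and 49 of 74 higher in the wild type against 0 and 8 in the knockout.

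Cytokine and chemokine genes gave 18 that rose and 1, Lif, that fell of 44 tested (median 1.32). The monocyte-attracting chemokine Ccl9 stood at 559.98, 239 and 458 CPM at 12 weeks and 65.3, 102 and 44.1 CPM at 4 weeks (log2 fold change 2.57, SE 0.35, adjusted p = 3.5e-04). Ccl3 and Ccl4, inflammatory CC chemokines, stood at 169, 60.03 and 114 CPM at 12 weeks and 27.0, 27.3 and 11.9 CPM at 4 weeks and at 21.1, 15.03 and 25.5 CPM at 12 weeks and 2.74, 2.54 and 2.63 CPM at 4 weeks. Cxcl3, a neutrophil chemoattractant, stood at 43.9, 22.99 and 28.8 CPM at 12 weeks and 6.08, 4.62 and 2.77 CPM at 4 weeks (log2 fold change 2.83, SE 0.51, adjusted p = 0.0036). No 12-week library of these 4 genes overlapped the young ones. Ccl17 and Ccl22, ligands of CCR4, rose 10.3-fold and 2.86-fold, Pf4 10.2-fold and Ccl5 10.6-fold. Cxcl16, the ligand of CXCR6, stood at 17.02, 7.81 and 8.48 CPM at 12 weeks and 1.61, 1.64 and 1.91 CPM at 4 weeks (log2 fold change 2.69, SE 0.40, adjusted p = 7.2e-04). Il1b, Igf1, Il15 and Tnfsf13b rose by 1.02 to 1.36 on the log2 scale. Of the list 7 to 9 rose without any one library other than 12-week replicate 2, and 17 rose without that one.

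Monocyte-derived macrophage genes gave 10 that rose of 26 tested (median 1.56, or 1.42 with the 4 genes at 0 counts in all 4-week libraries at their bounds). Tmem176a and Tmem176b, paired membrane channel genes of monocytes and dendritic cells, stood at 4.94, 10.2 and 6.102 CPM at 12 weeks and 0.158, 0.0282 and 0 CPM at 4 weeks and at 7.63, 16.7 and 5.94 CPM at 12 weeks and 0.474, 0.254 and 0.0239 CPM at 4 weeks. Ly6c2, the surface marker of inflammatory monocytes, had 1 count in the 3 young libraries together and stood at 0.946, 1.49 and 0.7505 CPM at 12 weeks, a ratio of 124 (95% interval 21.7 to 4930, counting error only). Every 12-week library was above every 4-week library in each of these 3 genes. Lyz1, Lyz2, Itgam, Maf, Plac8 and C1qb also rose, and 7 to 12 members passed when 1 knockout library was left out. The wild type gave 4 higher and 1 lower of the same 26.

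Genes of T and NK lymphocytes had the highest share of calls among the 39 lists, with 20 of 25 tested members higher (median 4.76, or 4.69 with Cd28 and Cd8a, which had no count at 4 weeks, at their bounds). Cxcr6, a chemokine receptor of tissue T and NK cells, stood at 18.1, 89.2 and 57.98 CPM at 12 weeks and 0.132, 0.3102 and 0.144 CPM at 4 weeks (log2 fold change 8.13, SE 0.79, adjusted p = 3.7e-05). Cd3g and Cd3e, chains of the T cell receptor complex, stood at 12.3, 28.8 and 14.3 CPM at 12 weeks and 0.211, 0.254 and 0.167 CPM at 4 weeks and at 12.2, 32.3 and 10.6 CPM at 12 weeks and 0.526, 0.169 and 0.0478 CPM at 4 weeks. Pdcd1, the receptor PD-1, had 2 counts at 4 weeks in all and stood at 3.84, 28.8 and 11.9 CPM at 12 weeks, a ratio of 866 (95% interval 239 to 7158, counting error only). In all 4 genes replicate 2 was the highest, and the young libraries stayed under 1 CPM. Il7r, the interleukin 7 receptor, stood at 12.6, 25.2 and 12.2 CPM at 12 weeks and 0.526, 0.818 and 0.742 CPM at 4 weeks (log2 fold change 4.58, SE 0.48, adjusted p = 5.3e-05). The constant regions Trac and Trbc2, the kinase Lck and the CD8 genes Cd8a and Cd8b1 were among the other members that rose. The markers of this list together made up 102, 311 and 126 CPM of all counts at 12 weeks, 5.83, 3.38 and 3.89 CPM at 4 weeks, and 6.63 to 12.5 CPM in the wild type at 12 weeks. A two-sided exact permutation test of the knockout sums gave p = 0.1, which 3 libraries against 3 cannot go below. Without 12-week replicate 2, the highest, 18 of the 25 still passed, and 14 to 20 passed when any 1 knockout library was left out. The sort had no gate on T cell markers that the labels state. In pooled libraries more cells of a type and more RNA per cell cannot be told apart.

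The summed markers of other leukocytes were also higher in every 12-week library than in every 4-week library. The B and plasma cell markers summed to 32.8, 20.4 and 7.84 CPM at 12 weeks and to 0.933 to 1.82 CPM at 4 weeks, with 3 of 9 tested members higher: Blk, Ighm and Cd79b. Blk, a kinase of B cells, had no count at 4 weeks and stood at 1.43, 12.3 and 2.58 CPM, at least 69.3-fold higher. The B cell count was 1 without 4-week replicate 2 or 3. Pax5, a defining B cell factor, was at 0 in every knockout CD11b-low library. Dendritic cell markers summed to 257, 245 and 178 CPM against 121 to 132 CPM. Most of that sum came from Cd24a, Bst2, Ccl22 and Ccl17 at both ages. Of 17 members tested 6 were higher, among them Ccl17, Ccl22, Cd209a and Itgae. The 6 became 1 without 4-week replicate 2 or 3, 2 without 4-week replicate 1 and 3 without 12-week replicate 3. Neutrophil markers summed to 417, 256 and 305 CPM against 173 to 195 CPM, with 4 of 11 higher whichever library was left out: S100a8, S100a9, Il1r2 and Cxcr1. The receptor genes Cxcr2 and Csf3r of the same list did not pass and were lower in every 12-week library, at 5.83, 4.32 and 4.44 CPM at 12 weeks and 5.95, 6.85 and 7.702 CPM at 4 weeks and at 17.7, 41.9 and 35.6 CPM at 12 weeks and 48.5, 46.6 and 55.6 CPM at 4 weeks. Ly6g, the neutrophil marker excluded by the sort, and the granule genes Camp and Elane were at 0 in all 6 libraries. The eosinophil and mast cell markers summed to 618, 125 and 206 CPM against 16.8 to 39.5 CPM. The ribonuclease gene Ear6 alone gave 617, 123 and 204 CPM of all counts at 12 weeks. On the TMM scale it stood at 683, 124 and 242 CPM at 12 weeks and 13.97, 34.7 and 14.4 CPM at 4 weeks (log2 fold change 4.06, SE 0.63, adjusted p = 0.0015), while the granule protein genes Epx and Prg3 were at 0. By edgeR 0 of 15 lung epithelial, 0 of 12 erythroid and 0 of 5 sex-linked genes passed in the knockout, with 2, 1 and 0 at an unadjusted p under 0.05 and 2, 0 and 0 called by DESeq2. Of 2 stromal genes tested 0 passed, with 2 at an unadjusted p under 0.05 and 1 called by DESeq2. How far other cells in the sorted pools contribute to the genes described here was not tested.

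**Figure D3:**
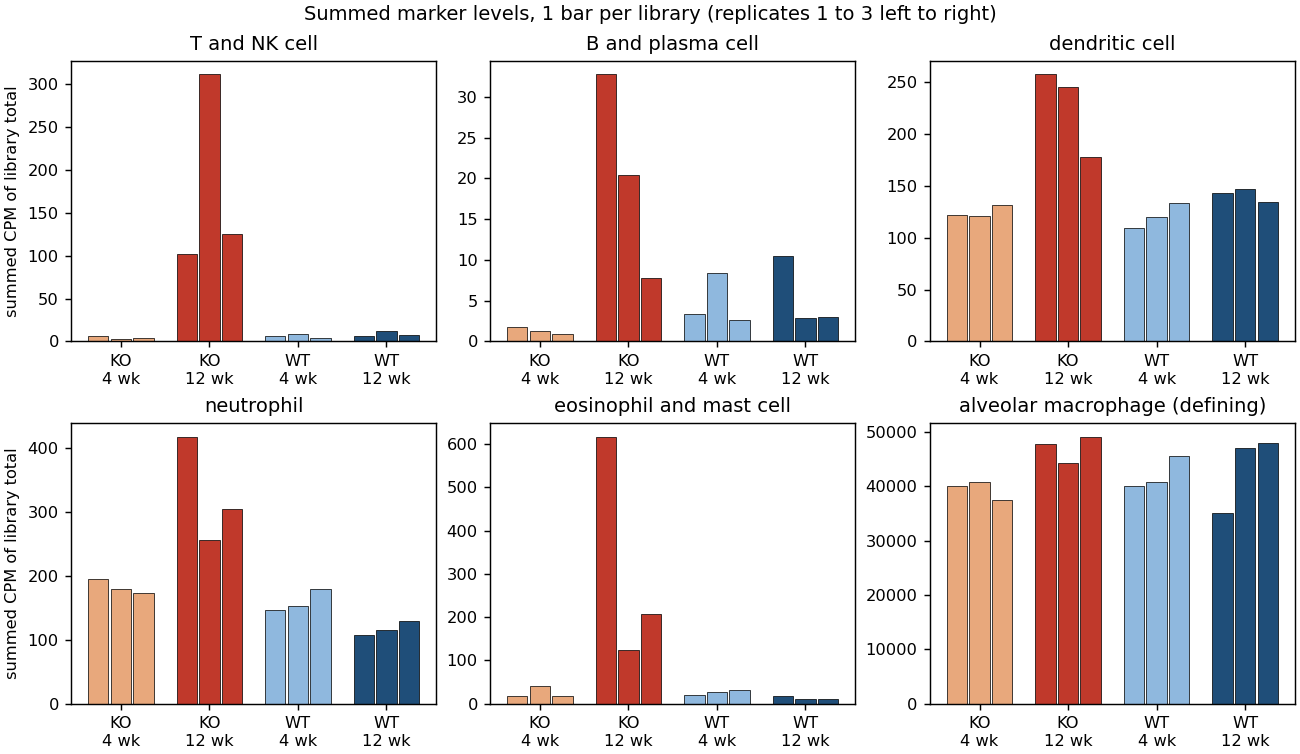
Summed CPM (of the library total, linear axis from 0) of 6 marker lists, 1 bar per library in replicate order; KO, Cybb knockout; WT, wild type. The T and NK cell sum is 102 to 311 in the 12-week knockout libraries and 12.5 or less in the other 9, while the alveolar macrophage sum is 35061 to 49199 in all 12. Chil3 makes up most of the alveolar macrophage sum in each library.

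Interferon-stimulated genes gave 7 that rose and 1 that fell of 56 tested (median 0.81). Usp18, which limits interferon signalling, stood at 11.1, 6.17 and 3.72 CPM at 12 weeks and 1.95, 0.733 and 0.837 CPM at 4 weeks (log2 fold change 2.57, SE 0.51, adjusted p = 0.0066), and Ifitm3, an antiviral membrane protein gene, at 6.04, 2.62 and 3.13 CPM at 12 weeks and 0.789, 0.282 and 0.191 CPM at 4 weeks. Oas1g, Oas1a, Oasl2, Ifit3 and Isg15 rose as well and Dtx3l fell. The 7 became 1 without 4-week replicate 3, 2 without 4-week replicate 2 or 12-week replicate 1 and 3 without 4-week replicate 1. Of 36 NF-kappaB genes, 4 rose, Traf1, Tnip3 and the near-identical Bcl2a1b and Bcl2a1d (median 0.31, -0.02 with library totals). They became 1 without 4-week replicate 1 or 3 and 2 without 12-week replicate 1 or 3 or 4-week replicate 2. NRF2 targets and antioxidant enzymes gave 7 that rose and 1 that fell of 32 tested (median 0.38). The quinone reductase Nqo1 stood at 12.4, 5.46 and 4.99 CPM at 12 weeks and 1.55, 0.564 and 0.742 CPM at 4 weeks (log2 fold change 3.00, SE 0.53, adjusted p = 0.0033), and the cystine transporter Slc7a11 at 62.7, 27.7 and 24.7 CPM at 12 weeks and 11.4, 7.67 and 4.69 CPM at 4 weeks (log2 fold change 2.28, SE 0.48, adjusted p = 0.0092). Replicate 1 was the highest in both. The 7 became 2 without it or without 4-week replicate 2 or 3, 3 and 4 without 4-week replicate 1 and 12-week replicate 3, and 11 without 12-week replicate 2. Among 10 NADPH oxidase subunits Cyba, the membrane partner of NOX2, and Ncf4, a cytosolic subunit, rose by 1.10 and 1.02 (log2), of which 0 passed without 4-week replicate 2 or 3 and 1 passed without 12-week replicate 1 or 3 or 4-week replicate 1.

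Clec4e and Clec4d, the lectins Mincle and MCL that sense microbial glycolipid, stood at 101.04, 109 and 135 CPM at 12 weeks and 30.97, 32.6 and 25.2 CPM at 4 weeks and at 83.1, 42.4 and 53.7 CPM at 12 weeks and 10.8, 11.8 and 11.2 CPM at 4 weeks (log2 fold changes 1.96 and 2.41, adjusted p = 1.6e-04 and 5.2e-04), without overlap. Clec5a and Clec4n rose and the lipoprotein receptor gene Scarb1 fell, which gave 4 higher and 1 lower of 40 in the list of pattern recognition receptors, set against 4.81% and 2.08% of all genes. In the Fc, CD300 and paired receptor list 3 of 31 rose, Cd300a, Cd300ld and Treml2, while 15 had an unadjusted p under 0.05 with a higher level at 12 weeks and DESeq2 called 11. All 12-week libraries were above all 4-week libraries for 21 of the 31, against 19% of all genes. Cd300a, an inhibitory receptor for phosphatidylserine, stood at 298, 149.7 and 304 CPM at 12 weeks and 64.3, 68.04 and 58.5 CPM at 4 weeks (log2 fold change 1.98, SE 0.28, adjusted p = 5.0e-04). Among 25 efferocytosis receptors and bridges Mfge8, Timd4, C1qb and Cd300a rose and the receptor kinase gene Axl and Dock1 fell. Axl stood at 309.9, 407 and 303 CPM at 12 weeks and 533, 621 and 683 CPM at 4 weeks, and its call ended without any one library other than 12-week replicate 2. The 4 that rose became 2 without 12-week replicate 3 or 4-week replicate 1 or 2, and of the 2 that fell 0 passed without any one library other than 12-week replicate 2, without which 5 of the list fell. Of 22 alternative activation genes 3 rose, Cd209a, Ccl17 and Ccl22, set against 4.81% of all genes. All 3 are also on the dendritic cell list, and Ccl17 and Ccl22 on the cytokine list, so these counts overlap. The 3 became 1 without 12-week replicate 3 or 4-week replicate 2 or 3, and the 3 Fc and CD300 members became 1 without 4-week replicate 1 or 3 and 9 without 12-week replicate 2.

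Of 37 identity genes of alveolar macrophages tested, 3 rose and 1 fell, set against 4.81% and 2.08% of all genes (median 0.06, -0.28 with library totals). All 12-week libraries were above all 4-week libraries for 14 of them and below for 8, against 19% and 19.6% of all genes. The 3 became 1 without 12-week replicate 1 or 4-week replicate 1 or 3 and 6 without 12-week replicate 2. Fabp4, a fatty acid binding protein gene of mature cells, stood at 1037, 426 and 681 CPM at 12 weeks and 157, 268 and 155 CPM at 4 weeks (log2 fold change 1.88, SE 0.39, adjusted p = 0.0092), and the zinc transporter gene Slc39a2 at 2639, 949 and 1466 CPM at 12 weeks and 308, 415 and 309 CPM at 4 weeks (log2 fold change 2.29, SE 0.41, adjusted p = 0.0035). Pparg, the lipid-sensing factor that sets up the lineage, stood at 432, 451 and 526 CPM at 12 weeks and 358, 415 and 393 CPM at 4 weeks and did not pass (adjusted p = 0.61). Chil3, the chitinase-like protein and the most abundant of the defining markers, stood at 40179.7, 35606 and 47689 CPM at 12 weeks and 26700.2, 26542 and 23981 CPM at 4 weeks and missed the threshold (adjusted p = 0.123).

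Oxidative phosphorylation genes encoded in the nucleus gave 8 that rose and 2 that fell of 74 tested (median 0.56), but 50 of the 74 had all 12-week libraries above all 4-week libraries, against 19% of all genes, and 7 of the 74 had all of them below, against 19.6%. Ndufb8 and Sdhb, subunits of complexes I and II, stood at 331, 229.9 and 516 CPM at 12 weeks and 182, 151 and 168 CPM at 4 weeks and at 616, 508 and 569.6 CPM at 12 weeks and 325, 324 and 335 CPM at 4 weeks. The 8 became 27 without 12-week replicate 2 and 0 without any one of the other 5 libraries. The mitochondrial share of counts was 0.765, 0.505 and 0.801% at 12 weeks and 0.945, 0.782 and 0.773% at 4 weeks, lowest in that same replicate. By edgeR 0 of 75 cytosolic ribosomal protein genes and 0 of 8 mitochondrially encoded genes passed, with 10 and 1 at an unadjusted p under 0.05 and 5 and 1 called by DESeq2. Of 34 fatty acid synthesis and oxidation genes 1 rose and 2 fell, set against 4.81% and 2.08% of all genes (median -0.04). Scd1, the fatty acid desaturase, rose 6.75-fold, and Cpt1a and Eci1, enzymes of fatty acid oxidation, fell. The Cpt1a call was lost without any one library other than 12-week replicate 2. Besides Scd1, the genes Apoc2, Npc2 and Nr1h3, which encodes the sterol sensor LXR alpha, rose among 20 efflux and LXR genes, of which Smpdl3a fell. Those 4 rises became 2 without any one library other than 12-week replicate 2. Of 24 cholesterol synthesis genes 1 fell, Srebf2, and of 24 lipid uptake and storage genes Fabp4, Fabp5 and Hilpda rose, 0 of which passed without 12-week replicate 1 or 4-week replicate 1 or 3. In the cell cycle list 21 of 49 genes had all 12-week libraries below all 4-week libraries, against 19.6% of all genes. All of them were above for 2 of the 49, against 19%. By the test 3 of 49 fell, set against 2.08% of all genes, with a median of -0.41. These were Uhrf1, Mcm4 and Kif23, with log2 fold changes of -1.09, -1.10 and -0.95. All 3 calls were lost without any one library other than 12-week replicate 2, and 6 passed without that one. Glycolysis and hypoxia genes gave 2 that rose of 34 (Ndrg1 and Slc2a6), the unfolded protein response 1 of 31 (Ddit3), set against 4.81% of all genes, and immediate early genes 0 of 32 by edgeR (2 by DESeq2, and 6 before adjustment at 0.05), where Fos stood at 285, 369.9 and 551 CPM at 12 weeks and 884, 1204 and 1107 CPM at 4 weeks (adjusted p = 0.0953).

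The largest fall among passing genes with a mean of 10 CPM or more at the higher age was in Fth1 (ENSMUSG00000024661, 19:9980598-9985098, plus strand), the ferritin heavy chain that stores iron, which stood at 1563, 1309 and 1186 CPM at 12 weeks and 12209, 12516 and 9636 CPM at 4 weeks (log2 fold change -3.08, SE 0.69, adjusted p = 0.0149). It was 8.47-fold lower at 12 weeks without overlap, and fell by a like amount in the wild type (log2 -2.91). In the CD11b-high knockout libraries it ranged widely, at 1678, 10588 and 26453 CPM. Fth1 has processed copies in the genome that could take some of its reads, and its call was lost without 12-week replicate 1 or 3 or 4-week replicate 2 (largest adjusted p = 0.0735). Map4k1, a kinase of immune receptor signalling, stood at 7.08, 7.07 and 5.78 CPM at 12 weeks and 46.8, 43.2 and 41.3 CPM at 4 weeks (log2 fold change -2.72, SE 0.53, adjusted p = 0.0063). Of the 15 largest falls, Atp5d, a subunit of the ATP synthase, stood at 21.8, 27.7 and 18.3 CPM at 12 weeks and 108, 120.3 and 133 CPM at 4 weeks (log2 fold change -2.41, SE 0.49, adjusted p = 0.0091). Mpc2, a pyruvate carrier, stood at 11.6, 15.5 and 19.5 CPM at 12 weeks and 87.7, 71.4 and 77.7 CPM at 4 weeks (log2 fold change -2.34, SE 0.49, adjusted p = 0.0092). Ethe1, Hint2 and Spr, enzymes of sulfide, nucleotide and biopterin metabolism, had log2 fold changes of -2.20, -2.01 and -2.31. Bsg, the surface glycoprotein basigin, stood at 22.9, 22.99 and 21.05 CPM at 12 weeks and 125, 93.96 and 99.2 CPM at 4 weeks (log2 fold change -2.25, SE 0.57, adjusted p = 0.0302), and Pik3ap1, an adaptor of PI3 kinase, at 25.02, 74.3 and 28.3 CPM at 12 weeks and 143, 187 and 187 CPM at 4 weeks (log2 fold change -2.02, SE 0.43, adjusted p = 0.0097). Inka1, a kinase inhibitor gene, stood at 1.65, 1.998 and 3.88 CPM at 12 weeks and 13.2, 12.5 and 13.4 CPM at 4 weeks (log2 fold change -2.38, SE 0.44, adjusted p = 0.0040). Rem1, Rnaseh2c, Psmd5, Osgep and Rbm14 completed the 15, with log2 fold changes of -2.50 to -2.02. Lack of overlap between the ages was part of the rule for naming these 15 falls and the 15 largest rises. Map4k1, Inka1, Rnaseh2c and Rbm14 passed whichever knockout library was left out, and the other 11 lost their call without at least 1, whereas all 15 of the largest rises kept theirs. Those 15 rises are Pdcd1, Cxcr6, Pla2g2d, Cd3g, Cd3e, Tmem176b, H2-M2, Fstl1, Fkbp11, H2-Eb1, Il7r, H2-Aa, Gng8, Slc11a1 and Mfge8. Pla2g2d, a secreted phospholipase A2, stood at 47.4, 7.75 and 5.45 CPM at 12 weeks and 0.184, 0.395 and 0 CPM at 4 weeks, highest in replicate 1 (log2 fold change 6.73, and 5.12 without it). Slc11a1, the phagosomal metal transporter NRAMP1, stood at 21.97, 12.05 and 9.397 CPM at 12 weeks and 1.32, 0.479 and 0.359 CPM at 4 weeks (log2 fold change 4.33, SE 0.58, adjusted p = 3.4e-04), and Fkbp11, a chaperone of secretory cells, at 65.01, 16.6 and 43.3 CPM at 12 weeks and 1.32, 1.86 and 1.94 CPM at 4 weeks.

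Among the most abundant transcripts, Lyz2, the macrophage lysozyme, stood at 99243, 63713 and 112086 CPM at 12 weeks and 32543, 33459.8 and 36127 CPM at 4 weeks (log2 fold change 1.43, SE 0.27, adjusted p = 0.0049). It passed without any one library, as did Cd74. The chemokine Ccl6 stood at 25640.0, 13358 and 23046 CPM at 12 weeks and 10430.5, 11717 and 8900.1 CPM at 4 weeks, the protease Ctsb at 11209, 7440.1 and 9008 CPM at 12 weeks and 4311, 4171 and 3879.6 CPM at 4 weeks and the lysosomal glycoprotein Cd68 at 9698, 4642 and 4671 CPM at 12 weeks and 2574, 2768 and 2623 CPM at 4 weeks. These 3 rose by 0.999, 1.16 and 1.26 on the log2 scale, but did not pass with library totals without TMM, with the Xist covariate, or without any one 4-week library. After Fth1, the most abundant genes to fall were Axl, Fam129a, Myh9 and Aplp2, with log2 fold changes of -0.85 to -1.16. Aplp2 did not pass without any one of the 6 knockout libraries, and Fam129a and Myh9 passed only when 12-week replicate 2 was the library left out. Myh9, the nonmuscle myosin heavy chain, stood at 231, 258 and 144 CPM at 12 weeks and 375, 447 and 385 CPM at 4 weeks.

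Whether these changes differed from ordinary maturation was asked with the wild-type libraries, which share no sample with the knockout comparison. In the wild type 2282 genes (17.2%) passed with age, 1167 (8.79%) higher and 1115 (8.39%) lower. Of the 639 genes that rose in the knockout, 236 also rose in the wild type (36.9% of the knockout rises and 20.2% of the wild-type rises), and 6 fell there. Of the 276 that fell, 153 also fell in the wild type (55.4% and 13.7%) and 0 rose there. The log2 fold changes had the same sign in 530 of the 639 and 270 of the 276, with wild-type medians of 0.92 and -0.99 for these genes against 2.06 and -1.14 in the knockout. Over all 13284 genes the age changes of the 2 genotypes had a Pearson r of 0.404 and a Spearman rho of 0.529, across genes, which are not independent. The wild-type count of 2282 was 1502 without 12-week replicate 2 and 1193, 1422 and 1069 without replicates 1, 2 and 3 of 4 weeks.

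**Figure D4:**
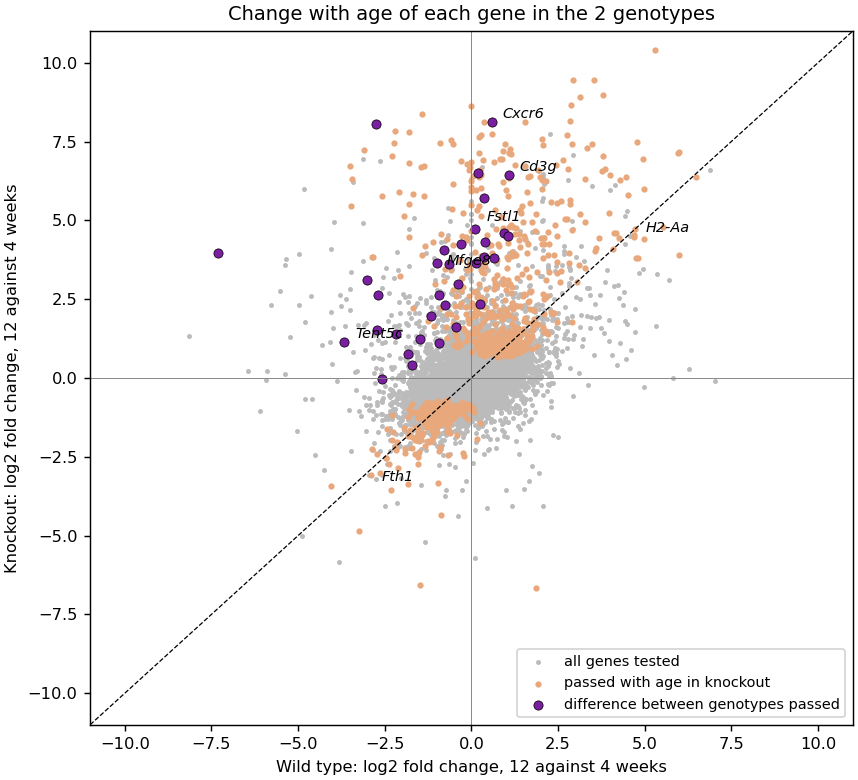
Log2 fold change with age (12 against 4 weeks) of each of 13284 genes in wild-type (x axis) and knockout (y axis) CD11b-low cells; grey, all genes; orange, passed with age in the knockout; purple, the 33 genes whose difference between genotypes passed; dashed line, equal change. All purple points lie above the dashed line, and H2-Aa and Fth1 lie near it.

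The difference between the age changes passed for 33 genes (0.248%), all with the larger value in the knockout. In this edgeR fit and with limma voom 0 passed in the other direction, while DESeq2 called 10 there. Of edgeR's other fits, that without a filter on low counts called 26 there of 321, and that without 12-week wild-type replicate 3 called 2 of 21. At an unadjusted p under 0.05, 1103 genes (8.3%) differed, 743 (5.59%) with the larger value in the knockout and 360 (2.71%) with the smaller. Of the 33, 26 rose with age in the knockout and 13 fell with age in the wild type. Fstl1 (difference 4.63, SE 0.62, adjusted p = 0.0045) and Cxcr6 (7.55, SE 0.999, adjusted p = 0.0045) were among them, and in the wild type Cxcr6 stood at 0.966, 0.987 and 1.095 CPM at 12 weeks and 0.555, 1.201 and 0.302 CPM at 4 weeks. With age in the wild type these genes had log2 fold changes of 0.12 and 0.58, which did not pass. Cd3g (5.36) and Ear6 (4.84) passed as well, and 4 of the 33 belong to the T and NK list. Cd200r2, a receptor of the CD200R family, stood at 61.05, 20.4 and 43.2 CPM at 12 weeks and 3.24, 3.81 and 2.97 CPM at 4 weeks in the knockout and at 0.242, 2.196 and 2.69 CPM at 12 weeks and 2.54, 4.702 and 2.96 CPM at 4 weeks in the wild type (difference 4.62, adjusted p = 0.018). Tent5c, a poly(A) polymerase gene, did not pass with age in the knockout (4.55, 2.95 and 3.39 CPM at 12 weeks and 1.84, 1.02 and 2.01 CPM at 4 weeks) and fell in the wild type, with a difference of 4.82 between the genotypes, where it stood at 9.46, 37.002 and 7.74 CPM at 4 weeks and 2.58, 0.573 and 1.14 CPM at 12 weeks. Erythroid markers fell with age in the wild type in 11 of 12 tested members, set against 8.39% of all genes, and in 0 of 12 in the knockout by edgeR. The difference between the age changes passed for 0 of the 12 by edgeR, with 10 at an unadjusted p under 0.05. Their sums were highest in the 4-week wild-type libraries (1880 to 8771 CPM of the library total), and the part of these markers in the Tent5c value was not tested. The count of 33 was 3 without 4-week knockout replicate 3, 21 without 12-week knockout replicate 1 or 12-week wild-type replicate 1 or 3, and 13 without 4-week wild-type replicate 2. Counts of calls were higher in the wild type than in the knockout for ribosomal proteins (38 of 75 higher against 0), oxidative phosphorylation (49 of 74 higher against 8), cell cycle (24 of 49 lower against 3) and cholesterol synthesis (10 of 24 lower against 1). The difference between the age changes passed for 0 members of these 4 lists by edgeR, with 4, 0, 11 and 11 at an unadjusted p under 0.05, so these counts do not show that the genotypes differ.

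The called genes also differed in transcript length, a property not used in the test. The median length of the longest annotated transcript (GENCODE M21) was 2105 bases among genes that rose in the knockout and 4231 bases among those that fell, against 3075 bases over all genes tested. In the wild type the medians were 1493.5 and 4355 bases in the same order. GC content differed little, with medians of 49.4, 50.8 and 49.4% for knockout rises, knockout falls and all genes. Transcripts had a match for at least 99.8% of each set, and the part of length in the calls was not tested.

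**Figure D5:**
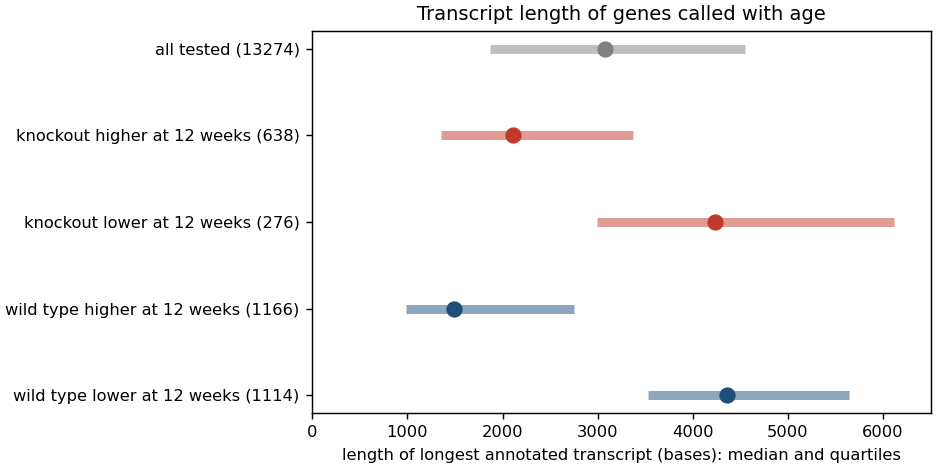
Length in bases of the longest annotated transcript of the genes that passed with age and of all genes tested (number with a transcript in brackets); point, median; bar, quartiles; red, knockout; blue, wild type. Genes higher at 12 weeks have shorter transcripts than all genes tested and genes lower at 12 weeks have longer ones in both genotypes.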

How the data were processed

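RNA was measured by sequencing in 15 libraries of 5 groups, 3 each. The authors deposited 1 table of raw counts per gene, made with STAR, Subread and featureCounts per the submitters' processing notes, which give no versions; the genome build and the strand setting are not given in the sources used here. Of 40780 rows, 270 repeated rows were removed. Of 40510 genes, 25100 had at least 1 count, and 13284 passed edgeR's filter (minimum count 10, minimum total 15).

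Counts were scaled by TMM and tested in R 4.3.3 with edgeR 4.0.16 (robust quasi-likelihood, two-sided) over all 15 libraries and 5 group means, with 10 residual degrees of freedom and Benjamini-Hochberg adjustment over all genes at 0.05. The contrasts were 12 against 4 weeks in knockout and wild-type CD11b-low cells and their difference. Alternatives used DESeq2 1.42.0, limma 3.58.1 (voom), other scalings, filters and sample sets, a replicate block, and each library left out in turn. The code was tested on simulated data. No column of other samples was present.

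Genes were named if they were the 15 largest changes per direction among passing genes whose higher group averaged 10 CPM or more and whose ages did not overlap, the 5 most abundant that passed per direction, up to 6 per direction for the difference, fixed genes, and leading members of the lists. A few genes are not reported here. Other genes in the text were named after their values were seen. The members and the 39 gene lists were chosen with earlier results of these data known. List medians set genes with 0 counts at 1 age also at a bound from a floor of 3 counts per library. Coordinates come from GENCODE M21 (GRCm38) by Ensembl identifier. Each replicate is labelled as independent, and the test set each difference between groups against the spread between pools, estimated over all 15 libraries.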

Additional observations from a re-analysis of the deposited data

Results flagged for a closer look

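For 11 genes named by the rule for size, level or list the change with age differed between the genotypes by the test of the difference itself (edgeR, adjusted over all genes). Each value is the knockout log2 change minus the wild-type one. The T cell genes Cxcr6 and Cd3g had values of 7.55 (adjusted p = 0.0045) and 5.36 (0.018). The T cell kinase gene Lck, named after its values were seen, passed as well with 4.25 (adjusted p = 0.0343).

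The secreted or matrix genes Fstl1, Mfge8 and Mmp12 had values of 4.63 (0.0045), 4.57 (0.018) and 3.51 (0.035). The ribonuclease gene Ear6 had 4.84 (0.023), the poly(A) polymerase gene Tent5c 4.82 (0.018), the receptor gene Cd200r2 4.62 (0.018), the metal transporter gene Slc11a1 3.93 (0.035), the chaperone gene Fkbp11 3.66 (0.018) and the G protein subunit gene Gng8 3.46 (0.035).

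Of 24 alternatives, 1 ended the call for Fstl1 and Cxcr6, 2 for Cd3g, 3 for Mfge8 and Tent5c, 4 for Cd200r2 and Fkbp11, 8 for Ear6, 11 for Mmp12, 14 for Slc11a1 and 15 for Gng8. For the difference, the fit with the compared groups only and that with the 12 CD11b-low libraries are the same. They are counted separately among the 24, and both ended the call for Slc11a1 and Gng8.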

How the results depend on the processing

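The 915 knockout calls became 1646 with the compared groups only, 1395 without a filter, 1685 and 1698 with DESeq2 on its own and on the same genes, 2640 with limma voom, 1498 with library totals and 553 with the Xist covariate, and 235 to 1305 with 1 library left out. The 2282 wild-type calls became 1123 with the compared groups only and 3968 with limma voom, and 1069 to 2528 with 1 library left out. The 33 differences became 321 without a filter and 150 and 151 with DESeq2, and each of these sets held all 33. With the Xist covariate 20 passed, of which 11 were among the 33. With limma voom 24 passed, of which 13 were among the 33. With 1 library left out 3 to 35 passed. The causes were not tested. The fits with library totals, the Xist covariate and lists without 1 library were chosen after seeing the data.

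With a replicate block 945 knockout genes, 2377 wild-type genes and 66 differences passed. The deviations of same-numbered knockout libraries correlated at -0.05, 0.04 and -0.08, and 1 of 3 libraries correlated best with its own number, so the numbers do not pair these samples. Same-numbered CD11b-low and CD11b-high knockout libraries of 12 weeks correlated at 0.43, 0.35 and 0.11, each best with its own number, yet entered the fit as independent. Without the CD11b-high libraries 911 knockout genes, 2300 wild-type genes and 28 differences passed.

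With 3 pools a group the spread is poorly known, and the exact test cannot go below 0.1. Low counts limit genes near 0 in the young libraries. The split of reads among near-identical copies and overlapping genes is uncertain, since the strand setting is not known. Intervals and floors cover counting error only.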

Other observations

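The gene with the lowest p for the difference between genotypes, chosen after its values were seen, was Anpep, the surface aminopeptidase CD13. Its mean was 33.997 CPM at 12 weeks and 5.48 CPM at 4 weeks in knockout CD11b-low cells and 1.25 and 2.398 CPM in wild-type cells (difference 3.57, SE 0.38, adjusted p = 4.3e-04), and 116 CPM in the CD11b-high knockout cells. Ptafr, the receptor for platelet activating factor, likewise rose with age in the knockout (log2 fold change 1.98) and fell in the wild type (-1.18).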
